A study of Homo sapiens with 11 samples.

Results

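RNAs named as antisense transcripts that were well expressed in the retinal pigment epithelium (RPE) line ARPE-19 were followed across 5 groups of libraries. The set holds the features whose symbol ends in -AS followed by a digit and whose mean reached 100 normalised counts in at least 1 group. RASGRF2-AS1, LHX2-AS1 and UNC5B-AS1 were left out. This gave 147 antisense RNAs, of 1533 features with such a symbol and 60605 features in all. The set rests on symbols: GENCODE release 29 types 102 of the 147 as antisense, 22 as processed transcripts, 20 as lincRNA, DIP2C-AS1 as protein coding, and SVIL-AS1 and TP73-AS1 as transcribed pseudogenes. ARPE-19 is an established human line that grows from RPE, the pigmented layer behind the photoreceptors. Stable lines carried an open reading frame for GFP, the fluorescent control protein (n = 3 libraries), or for the transcription factors Oct4, Sox2 or Klf4 alone, or for all 3 together (OSK; n = 2 each). RNA was taken after 4 days of expression. The library names of all factor lines carry the letters mC, which those of the GFP line lack; the labels do not explain them, and what they stand for cannot be told apart from the factors. The sources used here do not give the promoter of the open reading frames, the number of clones per line, or whether libraries came from separate cultures, so p-values measure only the spread between these libraries, which may be technical. The factors are nuclear proteins that bind DNA and can open chromatin at silent genes; the study's design text places the data among experiments on oxidative resilience of the RPE.

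An antisense RNA is transcribed from the strand opposite to another gene, called its host here. Some start beside the host's start and run away from it, sharing one bidirectional promoter region; others start beyond the host's end or within one of its introns and run against it. Many are spliced and polyadenylated, and a few are known to act on the chromatin, splicing or stability of their neighbours, while for most no role is established. Nuclear surveillance by the RNA exosome removes a large share of such transcripts soon after they are made.

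The members were chosen by their measured group means in these 11 libraries, so the level that admitted a member is a description. The members just inside the threshold were POC1B-AS1 with a highest group mean of 100.6, PAXIP1-AS2 with 100.8 and WWC2-AS2 with 100.9. Just outside it were UBA6-AS1 with 99.46, ADGRL1-AS1 with 97.69 and GSN-AS1 with 97.6. A member admitted through a single high group had to differ between groups. Tests are therefore given only for members whose mean over the 5 groups was at least 100, of which there were 99, and the other 48 are described by their values. Of the 99, 17 had a mean under 100 over the 4 groups other than their highest, so that 1 group lifted them over the limit. For these 17 no single test is given in a comparison with that group. Counts over the 99, and over their pairs with hosts, do include such calls of the 17. Counts are therefore also given for the 82 that remain. The 82 leave out members high in 1 group by construction. All 147 passed the filter on low values (10 or more normalised counts in 2 or more libraries).

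Recovered reads ranged from 15053300 to 19791775 per library, and a member had between 0 and 2838 reads in a library. GFP replicate 1 and OSK replicate 1 stood apart, with 42956 and 32493 features detected against 25853 to 26971 in the other libraries, and reads at 67.65% and 22.96% of 405 olfactory receptor genes against 4.94% to 8.15%. For the members, GFP replicate 1 was the highest of the 3 GFP libraries for 49 members and the lowest for 49. Summed over the members, values were 36603, 36566 and 36806 in GFP and ranged from 32252 to 37128 over all libraries. POU5F1, the gene of Oct4, had at least 19020.35 normalised counts in the lines labelled for it and at most 445.62 elsewhere, SOX2 at least 17581.85 against 197.4, and KLF4 at least 22141.79 against 248.49. Of 15 RPE markers, 11 passed the low-value filter, and their summed level had a group mean of 35880 in GFP, 18620 in Oct4, 21780 in Sox2, 27260 in Klf4 and 16000 in OSK. The keratin KRT8 made up 15930 of this in GFP, 10740 in Oct4, 14280 in Sox2, 13170 in Klf4 and 7013 in OSK. The pigment genes PMEL and TYRP1 had 5147 and 2491 in GFP and were lower in every factor line. They had 140.4 and 134.0 in Sox2, 612.1 and 274.1 in Oct4, 1270 and 1630 in Klf4, and 808.7 and 816.0 in OSK. The transcription factor gene OTX2 had 1881 in GFP, 1494 in Oct4, 1208 in Sox2, 2320 in Klf4 and 1970 in OSK. RPE65, a defining marker, was at most 2.315 in any group. No leukocyte marker of 3 passed the filter (summed level 0 to 26.81), 2 of 6 photoreceptor markers did (172.8 to 350.2), and 3 of 4 endothelial markers did, mostly through KDR (534.5 to 1343). The part of these marker differences in the changes below was not tested, and in bulk libraries fewer cells of a type and less RNA per cell cannot be told apart.

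In the gene models of GENCODE release 29 (GRCh38), 91 members lay head to head with their host: they ran apart from starts within 5000 bases, or overlapped so that one start lay within the other gene. In 59 of these the starts were less than 1000 bases apart, with a median of 687 over the 91. The second part of this rule also takes in members that start beyond the host's end and run across the whole host. MSC-AS1 and NUTM2A-AS1 are of this kind, with starts 16301 and 117164 bases from those of their hosts. The class is thus wider than pairs that share a promoter region. Tail to tail pairs, which overlap at their ends, numbered 30, and 22 members lay wholly inside the host's span. The other 3 with a host, IGFL2-AS1, LYRM4-AS1 and PRDX6-AS1, lay in none of these positions. A median of 4.6% of a member's exon bases lay within host exons, 37 members shared none with the host, and 28 shared none with any gene. SMARCA5-AS1 shared the most, 66.7%. Whether the counting used strand is not given in the sources used here, so in shared exons the reads of a member and its host cannot be told apart.

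Promoter windows from RefSeq (GRCh38.p14), 250 bases before to 50 bases after the annotated start, were found for 113 of the 147 members. A fixed set of short motifs was searched on both strands: the POU octamer ATGCAAAT, the SOX cores ACAAAG and ACAATG, and the KLF motif CCACACCC. The octamer was in 1.77% of the members' windows and 1.8% of 27305 windows of all genes. ACAAAG was in 10.6% against 16.0%, ACAATG in 7 of 113 against 2996 of 27305, and CCACACCC in 2.65% against 3.22%. A match is only a run of letters, and its absence says nothing of a factor's binding. The windows below belong to members on which the results turn, each printed 5′ to 3′ on the member's strand, with a motif match in capitals. SIX3-AS1 (chr2:44941829-44942128, minus strand) is shown because its level followed another order of lines than its host's, and the host's start lies inside the window, which has 1 KLF match at base 195. ZMIZ1-AS1 (chr10:79067399-79067698, minus) and PLCE1-AS1 (chr10:94287021-94287320, minus) are shown because they were lower than in GFP in lines where their hosts were not; the first window has 67.3% G or C and the second, inside the host (the GENCODE start of PLCE1-AS1 lies 256666 bases from that of PLCE1), 31.0%. BVES-AS1 (chr6:105137437-105137736, plus; RefSeq name POPDC1-AS1) is shown because it was low outside the Oct4 line. ELF3-AS1 (chr1:202010304-202010603, minus) is shown for its octamer match on the reverse strand at base 138, in a member that was lower in the Oct4 line.
SIX3-AS1: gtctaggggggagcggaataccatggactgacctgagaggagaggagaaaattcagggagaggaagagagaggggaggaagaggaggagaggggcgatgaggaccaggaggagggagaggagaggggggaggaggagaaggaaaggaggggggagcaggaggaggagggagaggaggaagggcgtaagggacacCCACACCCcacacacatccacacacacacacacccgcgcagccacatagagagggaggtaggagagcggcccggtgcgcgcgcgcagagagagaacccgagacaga
ZMIZ1-AS1: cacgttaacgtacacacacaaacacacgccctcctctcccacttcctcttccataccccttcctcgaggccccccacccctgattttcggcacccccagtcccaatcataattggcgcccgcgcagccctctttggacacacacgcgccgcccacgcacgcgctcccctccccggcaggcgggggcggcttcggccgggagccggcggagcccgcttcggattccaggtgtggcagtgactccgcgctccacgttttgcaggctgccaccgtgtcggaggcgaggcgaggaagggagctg
PLCE1-AS1: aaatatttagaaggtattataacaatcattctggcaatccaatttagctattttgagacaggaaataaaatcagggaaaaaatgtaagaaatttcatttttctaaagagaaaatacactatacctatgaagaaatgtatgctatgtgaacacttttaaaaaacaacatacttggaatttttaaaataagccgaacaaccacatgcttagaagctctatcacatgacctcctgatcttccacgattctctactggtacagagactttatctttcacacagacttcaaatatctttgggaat
BVES-AS1: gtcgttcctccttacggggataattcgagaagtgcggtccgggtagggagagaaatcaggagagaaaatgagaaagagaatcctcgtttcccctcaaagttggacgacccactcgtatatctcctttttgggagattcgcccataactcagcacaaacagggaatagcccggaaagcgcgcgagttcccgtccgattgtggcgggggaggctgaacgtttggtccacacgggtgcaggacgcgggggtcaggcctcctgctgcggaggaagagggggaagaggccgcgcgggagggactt
ELF3-AS1: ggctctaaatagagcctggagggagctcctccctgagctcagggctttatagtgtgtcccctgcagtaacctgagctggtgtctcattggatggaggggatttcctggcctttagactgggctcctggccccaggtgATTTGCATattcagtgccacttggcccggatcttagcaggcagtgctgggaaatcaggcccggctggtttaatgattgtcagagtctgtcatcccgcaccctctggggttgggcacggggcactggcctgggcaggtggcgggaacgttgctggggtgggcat

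Of the 147 members, 60 were at or above 100 in every group, 36 in 1 group only and 51 in between. The group with the highest mean was Oct4 for 40 members, GFP for 39, Sox2 for 30, Klf4 for 19 and OSK for 19. A mean of at least 2 times that of the next group was seen for 23 members, and 15 of these were in the Oct4 line, 3 in Klf4, 2 in GFP, 2 in OSK and 1 in Sox2. These counts describe the set and carry no test, since the rule admitted members by their highest group. The heat map of all 147 shows these 15 as the darkest rows of the Oct4 block, in both Oct4 libraries.

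**Figure D1:**
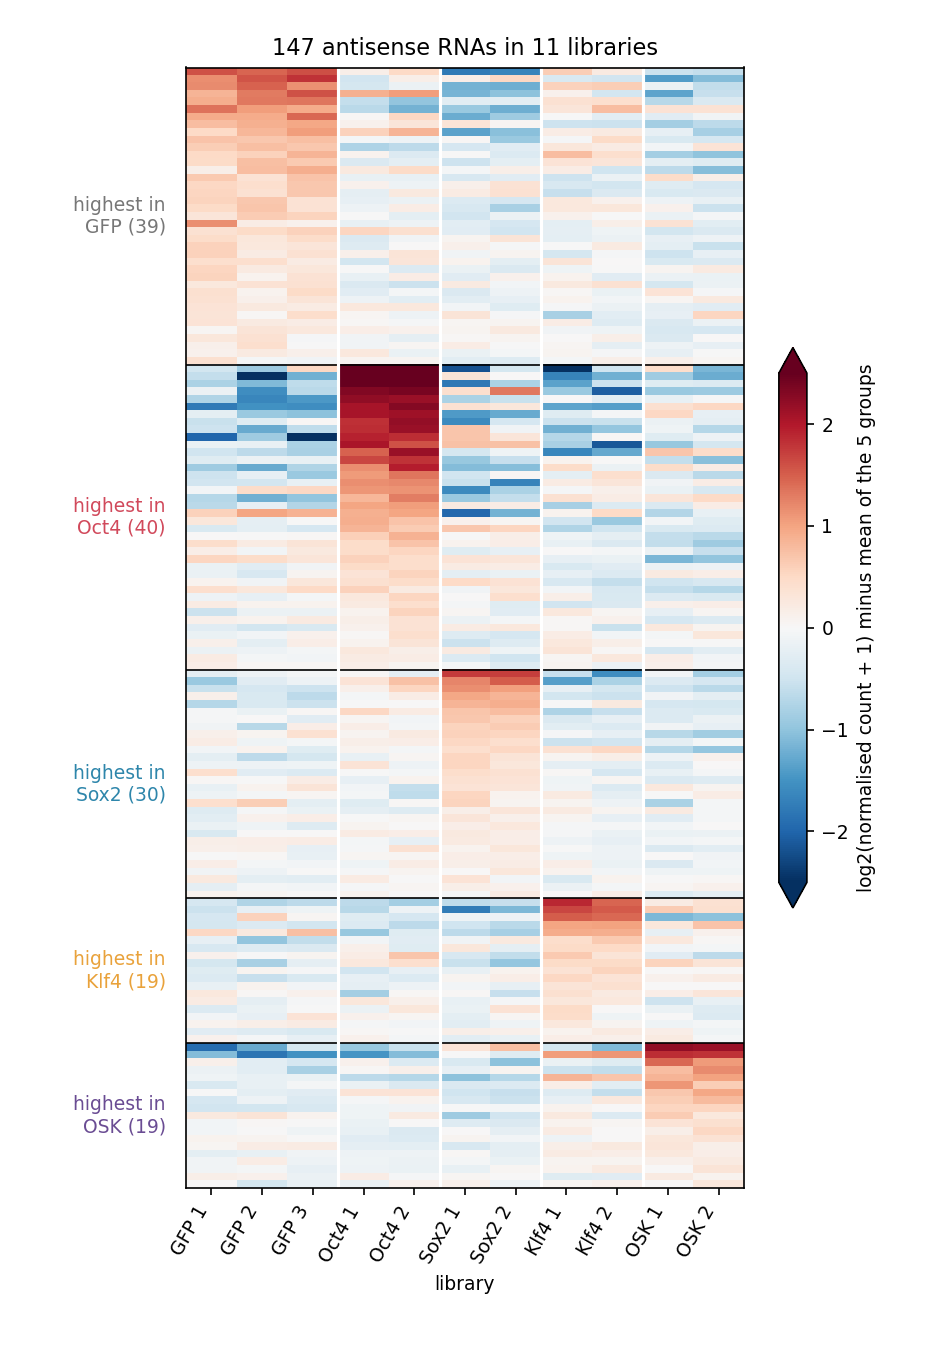
Heat map of the 147 antisense RNAs (rows, ordered by the group in which they were highest) in 11 libraries (columns); colour is log2(normalised count + 1) minus the mean of the 5 groups, red above and blue below. The block of 40 members highest in Oct4 holds the most dark red rows, and OSK and Klf4 lead the fewest members (19 each).

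Among the 99 members with a mean of at least 100, 36 passed an adjusted p of 0.05 in the Oct4 line against GFP (17 higher, 19 lower; limma with Benjamini-Hochberg adjustment over 18828 features), where 37.3% of all features passed (20.1% higher, 17.2% lower). In the Sox2 line 47 passed (20 higher, 27 lower) against 41.6% of all features (21.7% higher, 19.9% lower). In the Klf4 line 41 passed (15 higher, 26 lower) against 33.5% (17.6% higher, 16.0% lower), and in OSK 50 (18 higher, 32 lower) against 39.7% (19.7% higher, 20.0% lower). These are 36.4%, 47.5%, 41.4% and 50.5% of the 99. Of the 82, 30 passed in Oct4 (13 higher, 17 lower; 36.6%), 37 in Sox2 (15 and 22; 45.1%), 29 in Klf4 (10 and 19; 35.4%) and 36 in OSK (10 and 26; 43.9%). In the 4 comparisons, which share the GFP libraries, the median log2 change of the members was 0.01, -0.07, -0.08 and -0.08, and the median size of a change 0.30, 0.37, 0.31 and 0.38. The same medians over all tested features were -0.02, -0.02, -0.02 and -0.01, and 0.37, 0.41, 0.34 and 0.38. The median change of these 99 members was thus close to that of all tested features. Those features reach down to lower levels, so the comparison is not matched for level. The 411 other antisense features tested passed in 13.9%, 14.1%, 10.2% and 13.9%, with a median size of a change of 0.52, 0.52, 0.47 and 0.55. Among the 99, 10, 12, 9 and 17 passed with a difference of 2-fold or more (10.1%, 12.1%, 9.09% and 17.2%), beside 11%, 13.7%, 9.8% and 12.8% of all features. Among the 82 these were 5, 6, 2 and 6 (6.1%, 7.32%, 2.44% and 7.32%). Intergenic LINC RNAs at a mean of at least 100 are another class of long noncoding RNA; of 43, 24, 25, 18 and 24 passed in the same comparisons. By position, 20, 28, 24 and 26 of 60 head to head members passed in Oct4, Sox2, Klf4 and OSK, 10, 10, 10 and 14 of 25 tail to tail members, and 5, 8, 5 and 8 of 11 members inside their host. Among the 82 these were 18, 23, 18 and 21 of 53, then 7, 8, 6 and 10 of 20, and 4, 5, 3 and 4 of 7. No member belonged to a HOX cluster. Of 6 members with a mean of at least 100 and a host symbol beginning ZNF, ZBTB, ZFP, ZSCAN or ZKSCAN, 2 passed in Oct4, 2 in Sox2, and in Klf4 and OSK 0. This group rests on symbols, and zinc finger hosts with other names are not in it.

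The most abundant members were FGD5-AS1, OIP5-AS1, SLC9A3-AS1, IGFL2-AS1 and TP73-AS1, with means over the 5 groups of 2422, 1752, 1524, 1162 and 1039 normalised counts. OIP5-AS1, a conserved RNA known for controlling the turnover of a microRNA, had 1234.35, 1246.35 and 1289.94 in GFP, 1580.36 and 1597.77 in Oct4, 1688.56 and 1653.41 in Sox2, 1810.14 and 1723.08 in Klf4, and 2465.08 and 2486.87 in OSK. All libraries of the 4 lines lay above all GFP libraries, and both OSK libraries lay above every other. Its log2 change was 0.34 in Oct4 (SE 0.06; limma adjusted p = 0.000408), 0.41 in Sox2 (limma adjusted p = 5.17e-05), 0.49 in Klf4 (limma adjusted p = 1.33e-05) and 0.98 in OSK (limma adjusted p = 4.42e-09). OSK was also above each single line, by 0.64 over Oct4 (limma adjusted p = 1.37e-06), 0.57 over Sox2 (limma adjusted p = 5.12e-06) and 0.49 over Klf4 (limma adjusted p = 6.14e-05). Its host OIP5, a kinetochore gene that lies tail to tail with it, had only 0.97 to 26.6.

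FGD5-AS1 was the highest and among the steadier members, with group means from 2122 ± 176 in Sox2 (SD, n = 2) to 2717 ± 265 in Klf4 (n = 2), and 2664 ± 100 in GFP (n = 3). Its change of -0.33 in Sox2 (SE 0.07; limma adjusted p = 0.00205) was -0.25 without Sox2 replicate 1 and then did not pass (limma adjusted p = 0.06). The host FGD5, an exchange factor of endothelial cells, reached at most 25.82, in GFP replicate 1.

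SLC9A3-AS1 lies inside SLC9A3, a sodium and hydrogen ion exchanger, and both fell alike. The antisense RNA had 2028.78, 2467.4 and 2293.12 in GFP, 1133.31 and 1240.68 in Oct4, 1026.6 and 1235.56 in Sox2, 1859.88 and 1804.2 in Klf4, and 1230.37 and 1180.19 in OSK. All factor libraries were below all GFP libraries, with Klf4 nearest to them. It fell by 1.00 in Sox2 (SE 0.09; limma adjusted p = 2.48e-07), and the log2 change was -0.93 in Oct4 (limma adjusted p = 7.96e-07) and -0.90 in OSK (limma adjusted p = 9.29e-07). For the host it was -0.86 in Oct4 (limma adjusted p = 1.08e-05), -1.08 in Sox2 (limma adjusted p = 7.5e-07) and -0.90 in OSK (limma adjusted p = 6.41e-06). SLC9A3-AS1 itself changed by -0.30 in Klf4 (limma adjusted p = 0.0189). This call of the antisense RNA was lost when GFP replicate 2 (-0.24, limma adjusted p = 0.0771) or GFP replicate 3 (-0.29, limma adjusted p = 0.0528) was left out. With a single Klf4 library kept, the change of SLC9A3-AS1 was -0.28 for replicate 1 and -0.32 for replicate 2. The ratio of antisense RNA to host changed by between -0.06 and 0.08 in the 4 lines, and none of these passed (limma adjusted p from 0.849 to 0.985).

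IGFL2-AS1, named after a growth factor-like gene that was itself at or near 0 in most libraries (highest 23.83, in GFP replicate 1), was strongly lower in 2 lines. It had 2498.48, 2008.11 and 1870.27 in GFP, 611.94 and 430.35 in Oct4, 512.74 and 420.42 in Sox2, 1211 and 1661.38 in Klf4, and 1266.14 and 1257.18 in OSK. Oct4 and Sox2 were the lowest, Klf4 and OSK lay between, and no factor library reached the GFP range. It fell, with changes of -2.04 in Oct4 (SE 0.16; limma adjusted p = 4.15e-08), -2.18 in Sox2 (limma adjusted p = 1.44e-08) and -0.74 in OSK (limma adjusted p = 0.00118). The change of -0.57 in Klf4 (limma adjusted p = 0.00963) was -0.34 without Klf4 replicate 1 and then did not pass (limma adjusted p = 0.199). OSK was 1.30 above Oct4 (limma adjusted p = 1.46e-05) and 1.44 above Sox2 (limma adjusted p = 4.75e-06), while the difference from Klf4 was -0.17 (SE 0.17; limma adjusted p = 0.557).

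TP73-AS1 and its host TP73, a transcription factor of the p53 family that lies tail to tail with it, went opposite ways in OSK. TP73-AS1 had 1056.59, 1273.66 and 1233.56 in GFP and 772.91 and 764.43 in OSK, a change of -0.62 (SE 0.08; limma adjusted p = 2.15e-05). TP73 had 445.54 and 393.76 in OSK and 1.94 to 20.85 in the other 9 libraries, 5.85 above GFP on the log2 scale (SE 0.64; limma adjusted p = 2.03e-06). In the Oct4 and Sox2 lines TP73-AS1 changed by -0.07 (limma adjusted p = 0.569) and -0.05 (limma adjusted p = 0.7). In Klf4 its mean was lower than in GFP too, 958.8 beside 1188, while TP73 stayed at or under 20.85 there. The most even member was MAGI2-AS3, whose highest group mean was 1.182 times its lowest (890.8 ± 61.2 in GFP, n = 3, to 1053 ± 12.5 in Sox2, n = 2). WAC-AS1 followed at 1.20, and was named after the values were seen.

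Of a list of 36 well-described antisense RNAs, 14 were members, among them FGD5-AS1 and OIP5-AS1. LOXL1-AS1, next to the elastin cross-linking enzyme LOXL1, had a mean of 924.4 ± 40.8 in GFP (n = 3), 536.3 ± 47.9 in Oct4 and 598.8 ± 83.4 in OSK (n = 2 each), and fell, with changes of -0.79 (SE 0.11; limma adjusted p = 2.13e-05) and -0.63 (limma adjusted p = 0.000157). GABPB1-AS1, next to a subunit of the nuclear respiratory factor GABP, had 1168 ± 138 in GFP (n = 3) and 761.2 ± 69.1 in Sox2 (n = 2), a change of -0.61 (SE 0.11; limma adjusted p = 0.000296). Its means in the other lines were also under that of GFP, 819.7 in Oct4, 880.4 in Klf4 and 1015 in OSK. The host GABPB1 had 148.54 to 225.27 over all libraries. NR2F1-AS1 did not pass in any line (log2 changes -0.23 to 0.31; limma adjusted p from 0.0675 to 0.346), whereas NR2F1, a nuclear receptor gene of eye and brain development, fell, with changes of -0.49 in Oct4 (limma adjusted p = 0.000199), -0.88 in Klf4 (limma adjusted p = 6.58e-07) and -0.62 in OSK (limma adjusted p = 2e-05). Its change in Sox2 was -0.28 (limma adjusted p = 0.0124), and -0.23 without Sox2 replicate 2 (limma adjusted p = 0.132).

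MBNL1-AS1, 1 of the 17 members that a single group lifted over the limit, is described for its level in the Oct4 line. It lies at chr3:152262616-152269555 inside MBNL1, the muscleblind splicing regulator. It had 26.81, 32.37 and 31.11 in GFP, 394.8 and 465.83 in Oct4, 122.29 and 113.88 in Sox2, 37.01 and 35.42 in Klf4, and 123.58 and 134.19 in OSK. Oct4 stood far above all other lines, Sox2 and OSK formed a middle level, and Klf4 lay close above GFP. The Oct4 libraries lay 3.79 above GFP on the log2 scale, with no test. The change from GFP was 1.94 in Sox2 (SE 0.18; limma adjusted p = 2.48e-07), 2.07 in OSK (limma adjusted p = 1.38e-07) and 0.26 in Klf4 (limma adjusted p = 0.286), and OSK differed from Sox2 by 0.12 (SE 0.19; limma adjusted p = 0.653). MBNL1 rose less, by 0.49 in Oct4 (limma adjusted p = 4.31e-05), 0.77 in Sox2 (limma adjusted p = 2.33e-07) and 0.64 in OSK (limma adjusted p = 2.07e-06).

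SBF2-AS1, tail to tail with the phosphatase-related gene SBF2, was likewise lifted over the limit by the Oct4 line. Its values were 69.51, 62.72 and 56.38 in GFP, 276.36 and 442.94 in Oct4, 72.93 and 91.62 in Sox2, 31.23 and 39.99 in Klf4, and 160.44 and 137.49 in OSK. The Oct4 libraries differed from each other but were above all others, and OSK came next. The log2 change from GFP was 1.23 in OSK (SE 0.22; limma adjusted p = 0.000247) and 0.38 in Sox2 (limma adjusted p = 0.181). In Klf4 it was -0.81 (limma adjusted p = 0.00865), and -0.63 without Klf4 replicate 1 (limma adjusted p = 0.102).

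NAV2-AS6, inside the neuron navigator gene NAV2, had 138.03, 153.77 and 149.7 in GFP and 546.92 and 598.59 in Oct4, a rise of 1.95 (SE 0.16; limma adjusted p = 6.72e-08). NAV2 itself changed by 0.13 there (limma adjusted p = 0.361), and its Oct4 and GFP libraries overlapped. IRF1-AS1, named after its values were seen, lies tail to tail with IRF1, the interferon regulatory factor. It had 64.55, 34.4 and 39.85 in GFP and 512.08 and 489.86 in Oct4, the group that lifted it over the limit, so its difference there (3.46 on the log2 scale) has no test, while IRF1 rose by 3.39 (SE 0.11; limma adjusted p = 3.07e-12). Both rose in Klf4, by 1.15 (limma adjusted p = 0.000866) and 1.46 (limma adjusted p = 5.38e-08), and in OSK, by 1.16 (limma adjusted p = 0.000606) and 1.26 (limma adjusted p = 1.71e-07).

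Several members with low means are described without a test because their high level in the Oct4 line admitted them. BVES-AS1, whose promoter is printed above, had 210.17 and 294.15 in Oct4 and at most 21.32 in the other 9 libraries. Its host BVES codes for a cyclic AMP-binding membrane protein and rose by 2.96 in Oct4 (SE 0.09; limma adjusted p = 2.18e-12), 1.07 in Sox2 (limma adjusted p = 1.17e-07) and 0.97 in OSK (limma adjusted p = 4.19e-07). BVES-AS1 in OSK was 8.67 and 6.6, no higher than the highest GFP library (10.92), although OSK carries Oct4 too.

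The loci of the PGM5 family share near-identical sequence, so the division of reads among them is uncertain. PGM5P4-AS1 had 314.68 and 409.74 in Oct4 and 8.98 to 27.1 elsewhere. PGM5P3-AS1, for which no host was found in the table, had 126.57 and 143.07 in Oct4 and 0 to 12.64 elsewhere. PGM5-AS1, named after its values were seen, had 168.37 and 291.86 in Oct4 and 30.35 to 43.74 in GFP, and 102.94, 67.41, 102.98 and 84.69 in Klf4 and OSK. All 3 were thus highest in both Oct4 libraries. PGM5, a phosphoglucomutase-like protein of cell adhesion sites, changed by -0.08 in Oct4 (limma adjusted p = 0.362) and rose by 1.27 in Klf4 (limma adjusted p = 4.18e-10) and 1.47 in OSK (limma adjusted p = 6.28e-11).

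The Oct4 line was also highest for 4 other low-mean members. ATXN1-AS1, head to head with the ataxin gene ATXN1, had 176.5 and 167.1 in Oct4, 75.17 and 56.51 in Sox2 and 6.8 to 24.28 in GFP. ATXN1 rose by 2.53 in Oct4 (limma adjusted p = 2.01e-10) and 1.52 in Sox2 (limma adjusted p = 4.89e-08). The next 3 members were named after their values were seen. SREBF2-AS1 had 247.33 and 259.81 in Oct4 against 28.19 to 49.65 in GFP, and SREBF2, the main transcription factor of sterol synthesis, rose by 1.02 (limma adjusted p = 1.09e-08). BCAR3-AS1 had 118.44 and 153.37 against 21.85 to 33.05, and BCAR3, an adaptor of adhesion signalling, rose by 2.44 (limma adjusted p = 8.94e-12). DIP2C-AS1 had 199.72 and 247.22 against 22.26 to 37.74, while DIP2C had a value of -0.24 (limma adjusted p = 0.0214), which did not pass without GFP replicate 2 (-0.20, limma adjusted p = 0.0731), GFP replicate 3 (-0.19, limma adjusted p = 0.0854) or either Oct4 replicate (-0.24, limma adjusted p = 0.0893 and 0.0975). High antisense level in the Oct4 line therefore stood beside hosts that rose and a host that did not.

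STARD4-AS1, the most raised of the 82 members in the Sox2 line, starts 364 bases from STARD4, a sterol transfer protein. It had 90.37, 142.64 and 159.42 in GFP, 221.79 and 290.71 in Oct4, 405.03 and 500.05 in Sox2, 65.93 and 99.41 in Klf4, and 137.67 and 129.79 in OSK. Sox2 was highest and Oct4 next, whereas OSK overlapped GFP. The rise was 1.82 in Sox2 (SE 0.22; limma adjusted p = 6.87e-06), where STARD4 rose by 1.02 (limma adjusted p = 2.81e-07), and OSK was 1.74 below Sox2 (log2 change -1.74; limma adjusted p = 2.94e-05). In Oct4 it was 0.99 (limma adjusted p = 0.0024), and 0.80 without Oct4 replicate 2 (limma adjusted p = 0.0541). RGMB-AS1, a low-mean member inside the bone morphogenetic protein co-receptor gene RGMB, had 178.39 and 174.67 in Sox2 and 17.14 to 53.41 elsewhere. RGMB rose by 1.76 in Sox2 (limma adjusted p = 2.38e-09), and its values in the other lines were between -0.09 and 0.09 (limma adjusted p from 0.55 to 0.955).

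ZMIZ1-AS1 and GOLGA4-AS1 were lifted over the limit by GFP, so their levels below GFP have no test. The start of ZMIZ1-AS1 lies 1140 bases from that of ZMIZ1, a transcriptional coactivator. The values were 283.02, 258.98 and 286.76 in GFP, 103.34 and 132.77 in Oct4, 26.93 and 29.11 in Sox2, 143.42 and 109.69 in Klf4, and 63.96 and 61.59 in OSK. GFP was above every other library, and Sox2 below every other. The log2 differences from GFP were -3.26 in Sox2, -2.12 in OSK, -1.23 in Oct4 and -1.13 in Klf4. ZMIZ1 fell, with changes of -1.81 in Sox2 (limma adjusted p = 1.6e-10) and -0.94 in Oct4 (limma adjusted p = 4.12e-07) but not in OSK, where its value was 0.19 (limma adjusted p = 0.0968).

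GOLGA4-AS1, head to head with the Golgi tether GOLGA4, had 169.81, 230.65 and 283.85 in GFP, 174.18 and 194.57 in Oct4, 41.51 and 45.38 in Sox2, 100.63 and 67.41 in Klf4, and 36.86 and 62.69 in OSK. Oct4 overlapped GFP, and the other 3 lines lay below both. The log2 differences from GFP were -2.34 in Sox2, -1.43 in Klf4 and -2.19 in OSK. GOLGA4 fell by 0.40 in Sox2 (limma adjusted p = 8e-05).

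The Klf4 line lifted CIRBP-AS1, MYO16-AS1 and LIF-AS2 over the limit, so their Klf4 levels have no test. CIRBP-AS1, inside the cold-inducible RNA-binding protein gene CIRBP, had 68.52, 53.62 and 57.35 in GFP, 50.36 to 60.79 in the 4 Oct4 and Sox2 libraries, 342.37 and 251.38 in Klf4, and 105.15 and 119.89 in OSK. Klf4 was highest and OSK next, and no library of these 2 lines overlapped the rest. Klf4 lay 2.28 above GFP on the log2 scale, and the rise in OSK was 0.90 (SE 0.19; limma adjusted p = 0.00133), while the changes in Oct4 and Sox2 were -0.14 (limma adjusted p = 0.625) and 0.00 (limma adjusted p = 0.998). CIRBP was above all GFP libraries in all 4 lines, by 0.51 in Oct4 (SE 0.09; limma adjusted p = 0.000392), 0.37 in Sox2 (limma adjusted p = 0.0036; 0.30 without Sox2 replicate 2, limma adjusted p = 0.0697), 0.81 in Klf4 (limma adjusted p = 4.83e-06) and 0.37 in OSK (limma adjusted p = 0.0042). MYO16-AS1, inside an unconventional myosin gene, had 68.52, 85.99 and 92.35 in GFP and 320.39 and 291.37 in Klf4. It was lower in Sox2, with 29.17 and 45.38, a change of -1.14 (SE 0.22; limma adjusted p = 0.000607). LIF-AS2 starts 646 bases from LIF, the leukaemia inhibitory factor gene. It had 63.55, 128.48 and 88.46 in GFP, 246.36 and 235.38 in Klf4, and 39.02 and 41.8 in OSK. The Klf4 libraries were above and the OSK libraries below all GFP libraries, and the change in OSK was -1.13 (SE 0.23; limma adjusted p = 0.00105). LIF changed by 0.56 in Klf4 (limma adjusted p = 0.00687, and 0.0552 when only these groups were fitted) and -1.35 in OSK (limma adjusted p = 1.77e-06).

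SIX3-AS1 was lowest in GFP and Oct4 and highest in OSK, the group that lifted it over the limit and in which it has no test. It lies at chr2:44940154-44941873 and starts 25 bases from SIX3, a homeobox gene of forebrain and eye development. The values were 44.69, 26.3 and 33.05 in GFP, 33.67 and 44.64 in Oct4, 95.37 and 77.92 in Sox2, 198.94 and 205.67 in Klf4, and 349.06 and 338.77 in OSK. GFP and Oct4 overlapped, and Sox2, Klf4 and OSK each lay above the line before it without overlap. The rise was 1.32 in Sox2 (SE 0.22; limma adjusted p = 0.000138) and 2.54 in Klf4 (limma adjusted p = 2.41e-07), and in Oct4 the value was 0.19 (limma adjusted p = 0.54). SIX3 fell by 1.00 in Oct4 (SE 0.06; limma adjusted p = 3.51e-09), changed by -0.37 in Sox2 (limma adjusted p = 0.000144), and rose by 0.86 in Klf4 (limma adjusted p = 2.65e-08) and 1.03 in OSK (limma adjusted p = 2.48e-09). The ratio of SIX3-AS1 to SIX3 rose by 1.69 in Sox2 (SE 0.25; limma adjusted p = 0.000718) and 1.68 in Klf4 (limma adjusted p = 0.000577). In Oct4 the ratio's value was 1.19 (limma adjusted p = 0.00633), and 0.96 without Oct4 replicate 2 (limma adjusted p = 0.0831).

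In OSK 2 low-mean members stood out. ITGB8-AS1 had 122.5 and 117.69 in OSK against 5.96 to 18.47 in GFP and at most 43.67 elsewhere. Its host ITGB8, an integrin subunit that activates growth factor TGF-beta, rose by 1.20 in OSK (limma adjusted p = 9.94e-09) and also by 0.84 in Sox2 (limma adjusted p = 4.55e-07) and 0.95 in Klf4 (limma adjusted p = 2.26e-07), and fell by 1.23 in Oct4 (limma adjusted p = 8.64e-09). CARD8-AS1 had 135.5 and 104.49 in OSK and 23.97 to 54.62 elsewhere, while CARD8, an inflammasome sensor, had a value of -0.19 there (limma adjusted p = 0.242).

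Between OSK and the single lines, 49 of the 99 members passed against Oct4 (19 higher, 30 lower in OSK), where 40.3% of all features did (18.4% higher, 21.9% lower). Against Sox2 49 passed (23 higher, 26 lower), with 40.5% of all features (20.0% and 20.5%), and against Klf4 33 (12 higher, 21 lower), with 21.5% (9.56% and 11.9%). Of the 82, 33 passed against Oct4, 36 against Sox2 and 22 against Klf4. The count of the 99 against Klf4 was 17 without Klf4 replicate 1, 18 without OSK replicate 1 and 19 without OSK replicate 2. Among single lines, 33 differed between Oct4 and Sox2 (20 higher in Oct4), with 33.4% of all features (18.0% higher, 15.4% lower). Between Oct4 and Klf4 41 differed (23 higher in Oct4), with 41.7% (21.8% and 20.0%), and between Sox2 and Klf4 47 (23 higher in Sox2), with 40.8% (20.1% and 20.7%). Of the 82, 24, 29 and 35 differed in these comparisons. Without Oct4 replicate 2 or without Sox2 replicate 2 the count of the 99 between Oct4 and Sox2 was 20.

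Setting each member beside its host gave 98 pairs in which the member had a mean of at least 100 and the host was tested. Both passed in the same direction in 20 pairs in Oct4 (12 higher, 8 lower), 23 in Sox2 (8 and 15), 19 in Klf4 (10 and 9) and 27 in OSK (9 and 18). Both passed in opposite directions in 3, 4, 5 and 7 pairs. Over the 81 pairs of the 82 members, both passed in 18, 19, 15 and 24, and went opposite ways in 3, 2, 3 and 7. Of the 98 pairs, only the host passed in 32, 22, 22 and 22, and only the member in 12, 19, 17 and 15. In all, the member passed in 35, 46, 41 and 49 of them and the host in 55, 49, 46 and 56. At such shares some pairs pass together without any link, and whether more did was not tested. Of the 141 hosts tested, 82 passed in Oct4 (44 higher, 38 lower), 80 in Sox2 (33 and 47), 70 in Klf4 (37 and 33) and 82 in OSK (35 and 47). These are 58.2%, 56.7%, 49.6% and 58.2% of the hosts, beside 37.3%, 41.6%, 33.5% and 39.7% of all features, which were not matched to the hosts for level. The 141 include hosts of members with a mean under 100, which were admitted by their highest group. For the 97 tested hosts of members with a mean of at least 100, the shares were 56.7%, 50.5%, 46.4% and 57.7%. Some of these members were also lifted over the limit by a single group. The part of this selection in the host shares was not tested. Head to head pairs did not always move together: of 60 such pairs both passed in 15, 18, 14 and 19, and these went opposite ways in 2, 3, 2 and 4. In these 60 the member passed in 20, 28, 24 and 26, and the host in 37, 32, 27 and 34. Not all of these 60 share a start region, as the class includes members that run across the whole host.

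The ratio of member to host was fitted over 528 antisense pairs of the whole table, which also hold antisense RNAs at lower levels than these members. It passed in 14 of the 98 pairs in Oct4 (9 higher, 5 lower), with 7.77% of the 528 (5.68% higher, 2.08% lower), and in 29 with a pseudocount of 10 in place of 1. In Sox2 it passed in 23 (13 higher, 10 lower), with 11.7% (7.2% and 4.55%), in Klf4 in 25 (11 higher, 14 lower), with 10.6% (4.73% and 5.87%), and in OSK in 25 (9 higher, 16 lower), with 15.3% (7.01% and 8.33%). Over the pairs of the 82 members the counts were 9, 16, 18 and 19. The Sox2 count was 8 without Sox2 replicate 1, 12 without Sox2 replicate 2 and 14 without GFP replicate 2, the Klf4 count 13 without Klf4 replicate 1 and 14 without Klf4 replicate 2, and the OSK count 16 without OSK replicate 2. The largest ratio values in Klf4 were those of DLGAP1-AS1 (3.11, SE 0.82; limma adjusted p = 0.0243) and DLGAP1-AS2 (2.92; limma adjusted p = 0.0375), whose shared host DLGAP1, a synaptic scaffold gene, had 38.73 in GFP replicate 1 and 0 to 13.73 elsewhere. DLGAP1-AS2 did not pass without GFP replicate 1 (2.46; limma adjusted p = 0.0674), and neither passed without Klf4 replicate 1 (2.15 and 2.07; limma adjusted p = 0.307 and 0.362) or GFP replicate 3 (3.26 and 3.02; limma adjusted p = 0.0501 and 0.0728). DLGAP1-AS2 also did not pass without GFP replicate 2 (3.27; limma adjusted p = 0.0572) or Klf4 replicate 2 (3.76; limma adjusted p = 0.0702).

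**Figure D2:**
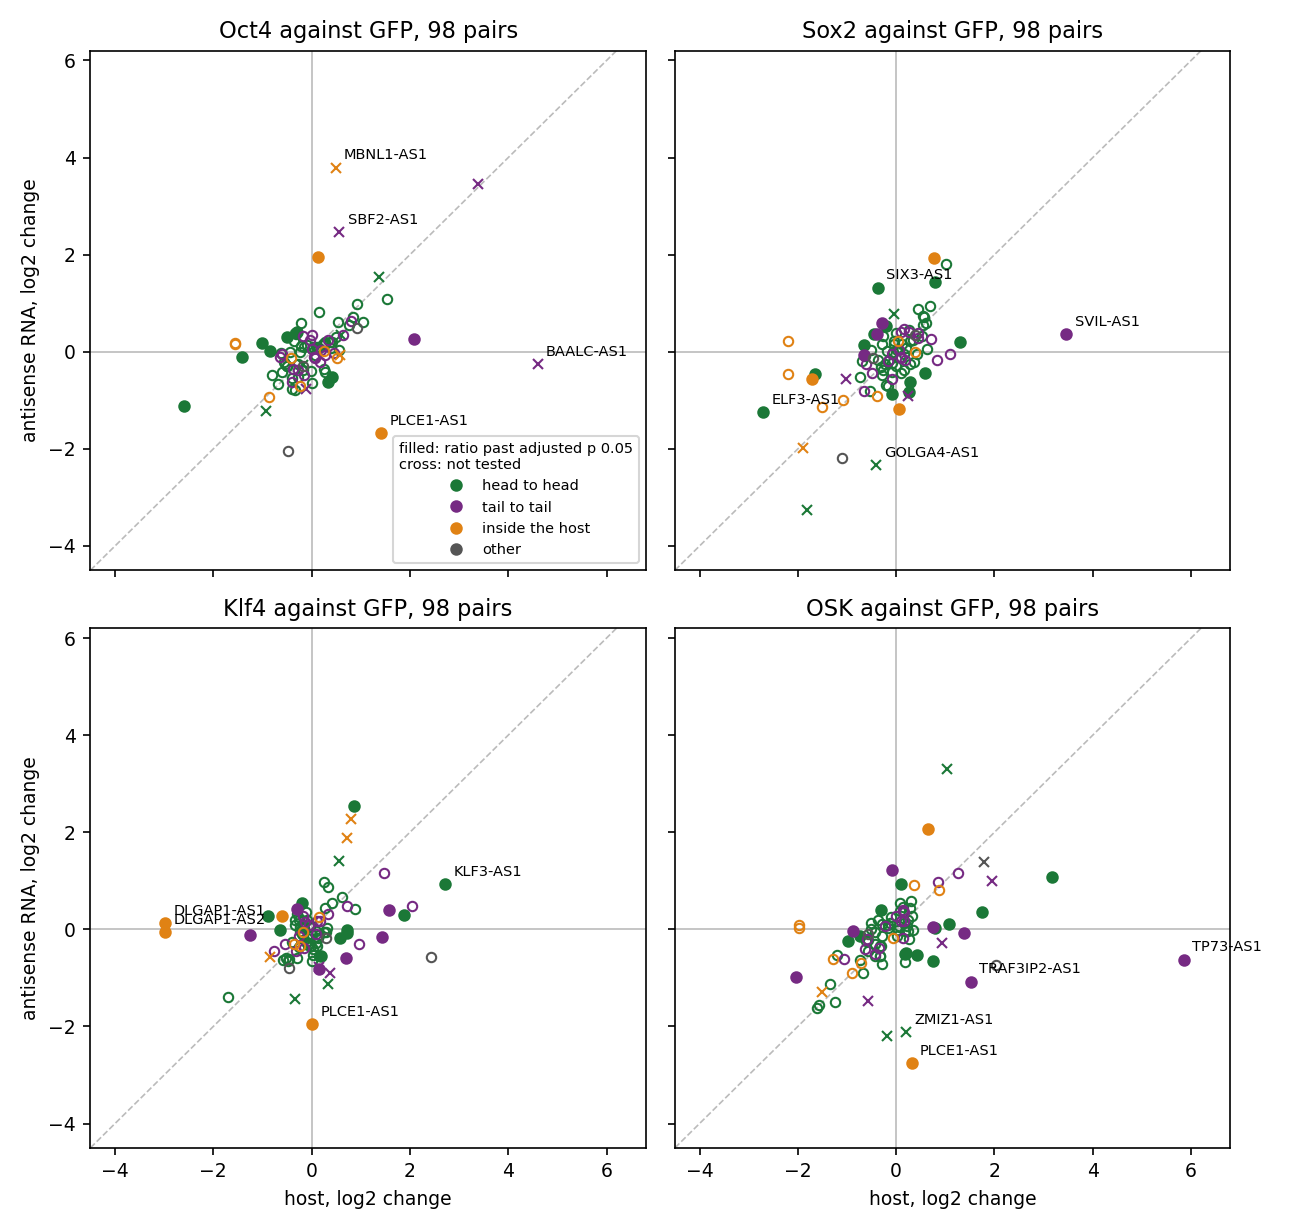
Log2 change against GFP of each member (vertical axis) and its host (horizontal axis), 1 panel for each of the 4 lines, 98 pairs with a member mean of at least 100; colour gives the position, filled points have a ratio past a limma adjusted p of 0.05, crosses were not tested, and the dashed line marks equal change. PLCE1-AS1 lies below the line in all panels where it is named, and BAALC-AS1, SVIL-AS1 and TP73-AS1 lie far to its right.

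**Figure D3:**
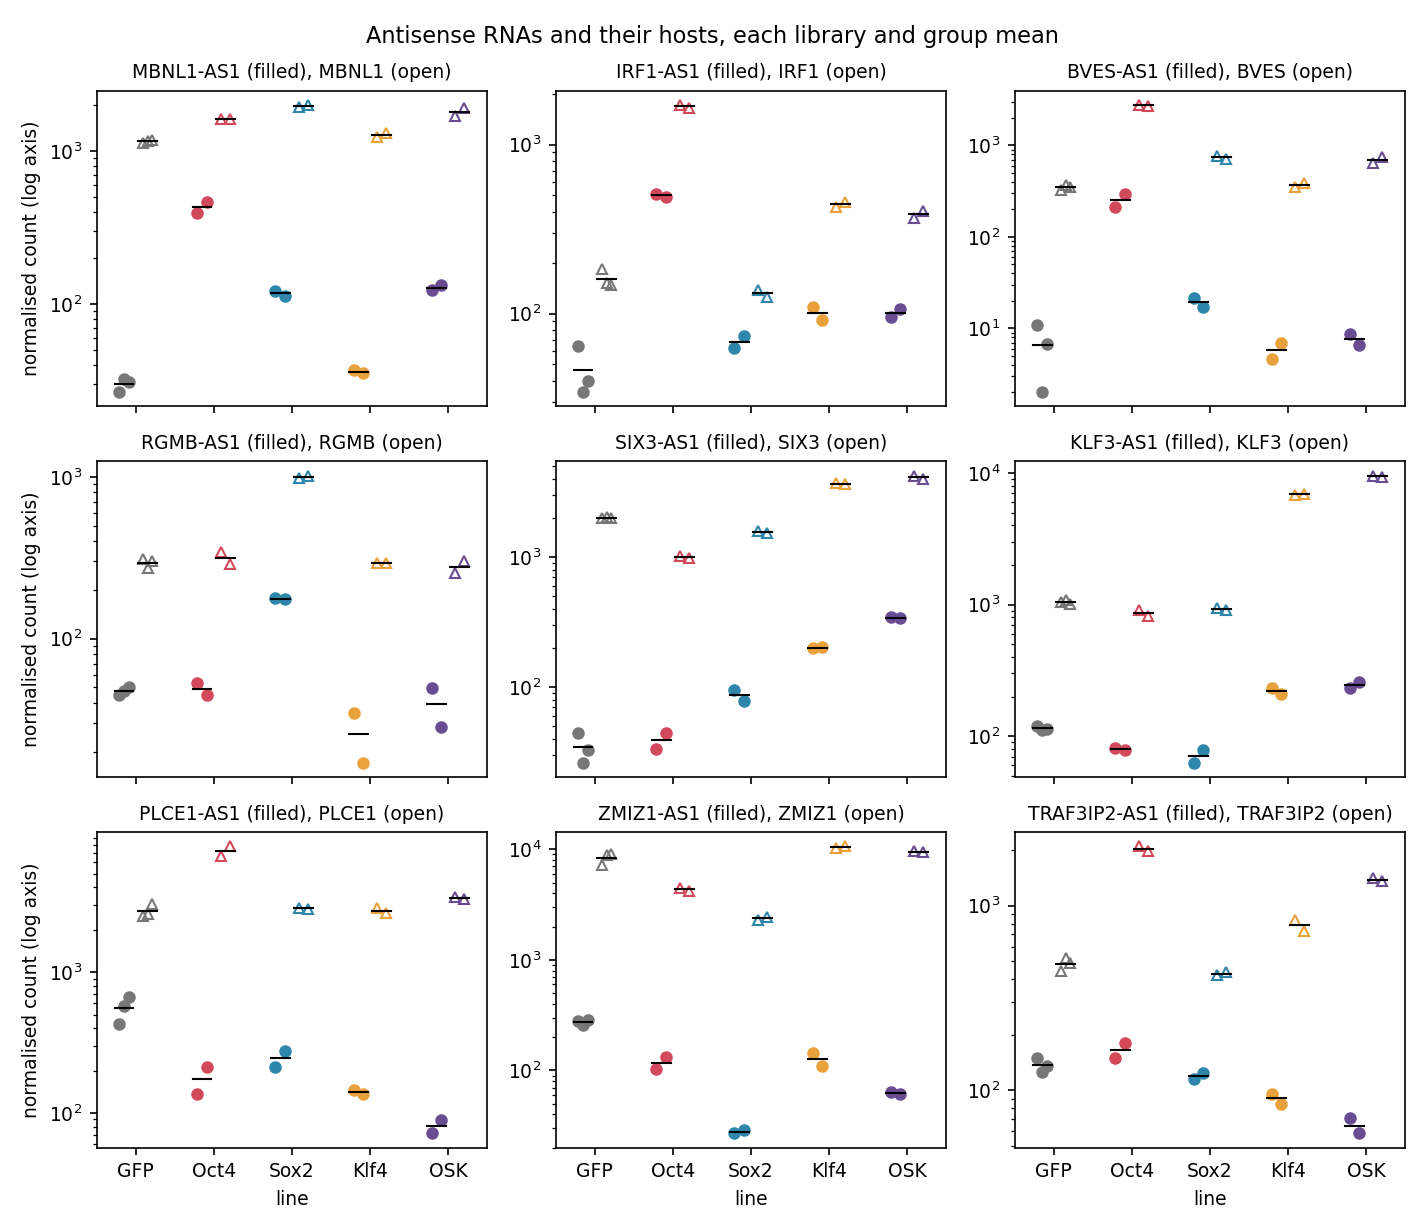
Normalised counts (log axis) of 9 antisense RNAs (filled circles) and their hosts (open triangles) in each library of the 5 lines; short bars are group means. IRF1-AS1 and BVES-AS1 peak in the same line as their hosts, PLCE1-AS1 and ZMIZ1-AS1 do not, and SIX3-AS1 rises in Sox2 where SIX3 is lower than in GFP.

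PLCE1-AS1 lies at chr10:94279277-94287478 inside PLCE1, a phospholipase C that answers Ras signals, and fell in every line. It had 428, 572.59 and 666.84 in GFP, 137.02 and 210.59 in Oct4, 213.17 and 275.71 in Sox2, 145.74 and 135.97 in Klf4, and 71.55 and 89.09 in OSK. All factor libraries were below all GFP libraries, and OSK was lowest. It fell, with changes of -1.68 in Oct4 (SE 0.20; limma adjusted p = 5.97e-06), -1.17 in Sox2 (limma adjusted p = 0.000182), -1.95 in Klf4 (limma adjusted p = 1.56e-06) and -2.76 in OSK (limma adjusted p = 2.1e-08). PLCE1 had 2509.41, 2572.61 and 3063.97 in GFP and 6666.33 and 7801.15 in Oct4, where it rose by 1.41 (SE 0.09; limma adjusted p = 4.04e-09). The values for PLCE1 in Sox2 and Klf4 were 0.07 (limma adjusted p = 0.584) and 0.01 (limma adjusted p = 0.93). The ratio of PLCE1-AS1 to PLCE1 fell, with changes of -3.10 in Oct4 (SE 0.21; limma adjusted p = 1.3e-07), -1.96 in Klf4 (limma adjusted p = 2.98e-05) and -3.07 in OSK (limma adjusted p = 2.14e-07).

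KLF3-AS1 starts 687 bases from KLF3, a Krüppel-like repressor. The antisense RNA had 119.16, 112.29 and 113.73 in GFP, 231.33 and 209.1 in Klf4, and 231.98 and 257.38 in OSK, and rose by 0.93 (SE 0.15; limma adjusted p = 0.000148) and 1.08 (limma adjusted p = 2.47e-05). KLF3 had 1046.66, 1092.58 and 1008.04 in GFP, 6782.53 and 6973.44 in Klf4, and 9554.62 and 9312.83 in OSK, rises of 2.71 (SE 0.07; limma adjusted p = 2.26e-13) and 3.17 (limma adjusted p = 5.41e-14). Both thus rose, the host far more, and the ratio fell, with changes of -1.78 (limma adjusted p = 2.98e-05) and -2.09 (limma adjusted p = 3.88e-06). In the Sox2 line KLF3-AS1 fell by 0.71 (limma adjusted p = 0.00111).

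In tail to tail pairs the host could rise strongly while the antisense RNA did not. TRAF3IP2, an adaptor of interleukin-17 signalling, had 441.9, 521 and 491.87 in GFP, 2095.93 and 1989.2 in Oct4, and 1413.57 and 1356.17 in OSK, rises of 2.08 (SE 0.09; limma adjusted p = 5.29e-11) and 1.51 (limma adjusted p = 1.63e-09). TRAF3IP2-AS1 had 148.96, 125.44 and 136.09 in GFP, 149.79 and 179.69 in Oct4, and 70.46 and 58.29 in OSK. Its Oct4 value was 0.26 (limma adjusted p = 0.237), and in OSK it fell by 1.08 (SE 0.17; limma adjusted p = 6.88e-05). SVIL, the actin-binding supervillin gene, had 154.91, 203.34 and 215.8 in GFP and 2067.78 and 2117.49 in Sox2, a rise of 3.46 (SE 0.13; limma adjusted p = 9.61e-12), whereas SVIL-AS1 rose by 0.37 there (SE 0.09; limma adjusted p = 0.00252). BAALC, a gene first described in brain and leukaemia, had 207.85 and 189.99 in Oct4 and 1.12 to 14.9 elsewhere, 4.60 above GFP on the log2 scale (SE 0.77; limma adjusted p = 0.000185), while BAALC-AS1, lifted over the limit by GFP and not tested against it, differed by -0.26.

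Starts that lay close together did not always go with one direction. TMEM9B-AS1, named after its values were seen, starts 336 bases from the lysosomal membrane gene TMEM9B. It had 331.67, 326.76 and 334.39 in GFP, 498.15 and 599.74 in Oct4, and 217.89 and 204.58 in OSK, changes of 0.72 (SE 0.11; limma adjusted p = 5.22e-05) and -0.65 (limma adjusted p = 0.000132). TMEM9B rose in both, by 0.84 (limma adjusted p = 2.16e-07) and 0.75 (limma adjusted p = 7.22e-07).

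Other pairs moved together. MSC-AS1 runs across the whole of the transcription factor gene MSC on the opposite strand. It had 392.25, 424.89 and 451.04 in GFP, 160.77 and 158.82 in Klf4, and 127.92 and 146.29 in OSK, log2 changes of -1.40 (SE 0.12; limma adjusted p = 2.96e-07) and -1.62 (limma adjusted p = 3.43e-08). MSC changed by -1.70 in Klf4 (SE 0.21; limma adjusted p = 1.08e-05) and also fell in OSK (limma adjusted p = 1.34e-05). ELF3-AS1, whose promoter is printed above, had 176.76, 146.69 and 208.02 in GFP, 63.86 and 99.57 in Oct4, and 78.54 and 68.5 in Sox2, log2 changes of -1.13 (SE 0.20; limma adjusted p = 0.000316) and -1.25 (limma adjusted p = 9.75e-05). ELF3, an epithelial ETS factor, had 111.22, 70.82 and 76.79 in GFP, 13.93 and 12.59 in Oct4, and 12.34 and 11.99 in Sox2, so that it fell further (a change of -2.59 in Oct4, SE 0.25; limma adjusted p = 7.57e-07 in Oct4 and 3.49e-07 in Sox2) and the ratio rose by 1.46 (limma adjusted p = 0.00196) and 1.45 (limma adjusted p = 0.00233). GATA6-AS1, a low-mean member admitted through GFP, had 113.21, 138.6 and 110.82 there and 20.55 to 76.56 in the factor lines. GATA6, a zinc finger transcription factor of early endoderm and heart, fell, with changes of -1.68 in Oct4 (limma adjusted p = 5.06e-09), -2.27 in Sox2 (limma adjusted p = 1.14e-10), -0.58 in Klf4 (limma adjusted p = 0.000514) and -1.41 in OSK (limma adjusted p = 3.25e-08).

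Member and host were highest in the same group in 65 of 142 pairs (45.8%), and in 167 of 386 other antisense pairs (43.3%). Levels can be set side by side only per exon length. Per kb of exon, the member was below its host in all 5 groups in 89 of 146 pairs, above it in 40 and above it in some groups only in 17. The lengths include exon bases shared between member and host. Some hosts below their member lie largely in its exons, such as C10orf95 with 66.0% of exon bases and OIP5 with 38.0%. The part of such overlap in these levels was not tested. The median member stood at 44.6 normalised counts per kb, ranging from 3.118 to 663.8, the median host at 112.0 per kb, and the median member had 42.2% of its host's level per kb. IGFL2-AS1 was highest per kb at 663.8, followed by FGD5-AS1 at 472.0 and SLC9A3-AS1 at 354.2.

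**Figure D4:**
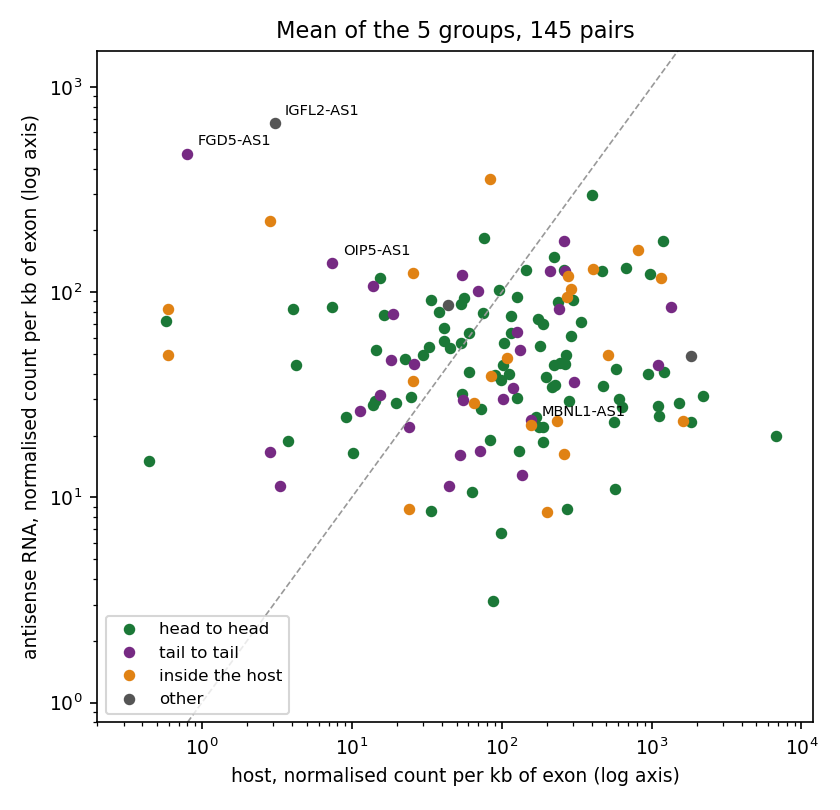
Mean level per kb of exon of each member against its host over the 5 groups (145 pairs, both axes on a log scale; 1 pair whose host was at 0 is not drawn). Most points lie on the side of the diagonal where the host is higher, and the pairs above it include FGD5-AS1, OIP5-AS1 and IGFL2-AS1.

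Genes of nuclear RNA surveillance, the pathway that degrades many antisense and promoter RNAs, were given as a list of 30, and all were tested. Against GFP, 7 were higher and 5 lower in Oct4 (40.0%), 7 and 4 in Sox2 (36.7%), 6 and 4 in Klf4 (33.3%) and 8 and 3 in OSK (36.7%), beside 37.3%, 41.6%, 33.5% and 39.7% of all features. ZFC3H1, a scaffold that hands polyadenylated nuclear RNA to the exosome, rose from a mean of 705 in GFP to 2225 in Oct4, a change of 1.66 (SE 0.08; limma adjusted p = 2.01e-10). In Sox2, Klf4 and OSK it rose by 1.02 (limma adjusted p = 3.54e-08), 0.87 (limma adjusted p = 4.15e-07) and 1.08 (limma adjusted p = 2.43e-08). ZCCHC8, of the nuclear exosome targeting complex, rose by 0.80 in Oct4 (limma adjusted p = 8.9e-06). EXOSC5, a subunit of the exosome core, fell, with changes of -0.91 in Oct4 (limma adjusted p = 7e-05) and -1.14 in Sox2 (limma adjusted p = 5.31e-06). EXOSC3 rose in every line, by 0.55 in Oct4 (limma adjusted p = 0.00333), 0.53 in Sox2 (limma adjusted p = 0.00362), 0.62 in Klf4 (limma adjusted p = 0.00146) and 0.50 in OSK (limma adjusted p = 0.00576). SRRT changed by -0.50 in Oct4 (limma adjusted p = 1.89e-05), -0.23 in Sox2 (limma adjusted p = 0.0109), -0.23 in Klf4 (limma adjusted p = 0.0141) and -0.21 in OSK (limma adjusted p = 0.0198). XRN2 also fell in Oct4 (-0.27, limma adjusted p = 0.00278), Sox2 (-0.17, limma adjusted p = 0.0364) and Klf4 (-0.23, limma adjusted p = 0.0083). In OSK its value was -0.12 (limma adjusted p = 0.133).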

How the data were processed

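Polyadenylated RNA of 11 ARPE-19 libraries was sequenced by the submitters from TRIzol extracts, per the labels' protocols, with oligo(dT) beads and the NEBNext Ultra II RNA kit. The submitters' processing notes name STAR 2.7.1a, featureCounts 1.6.2 and the human build GRCh38; the annotation and the use of strand are not given in the sources used here. The deposited values are a signal in normalised counts: each is a gene's read count divided by 1 factor per library, and whole reads were recovered from the deposited steps (all values up to 200 came out whole within a tolerance of 0.0061). Depth was 15053300 to 19791775 recovered reads per library.

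Groups came from the sample titles. The test was limma 3.58.1 (R 4.3.3, lmFit and eBayes with trend) on log2(value + 1), which understates changes of low genes, over the 18828 features that reached 10 in 2 or more libraries. All 11 libraries entered 1 fit (6 residual and 9.21 prior degrees of freedom), with Benjamini-Hochberg adjustment per comparison and a threshold of 0.05. Ratios, log2((antisense + 1)/(host + 1)), were fitted likewise over 528 pairs (7.74 prior degrees of freedom). The host is the gene named in the symbol. Positions and exon lengths came from GENCODE release 29. The procedure was tested on simulated data. Alternatives were edgeR 4.0.16 (TMM or median-of-ratios factors) and DESeq2 1.42.0 on recovered reads, no filter, a pseudocount of 10, TMM scaling, only the compared groups, a replicate block, and leaving out libraries.

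Members named were the 12 with the highest mean, the 5 largest rises and falls per line against GFP and 3 each between lines among calls without overlap, the 4 largest ratio changes each way per line, the members nearest the threshold, and members of a list of 36 well-described antisense RNAs; not all of them are printed. For members with a mean under 100, and for the 17 that 1 group lifted over it in comparisons with that group, the p-value only selected names. The members and lists were chosen with earlier results of these data known.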

Additional observations from a re-analysis of the deposited data

How the results depend on the processing

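Among the counts of changed members, hosts and ratios, 158 of 160 values under another tool, scaling, filter, pseudocount, sample set, replicate block or set of members stayed within 1.5 times. The exceptions were the ratio in Oct4 against GFP, 29 with a pseudocount of 10 and 9 over the 82 members at 100 or more without their highest group, in place of 14. That set was chosen after seeing the data. Without 1 library at a time, counts of members against GFP ranged from 26 to 37 in Oct4, 35 to 47 in Sox2, 28 to 42 in Klf4 and 39 to 50 in OSK. For OSK they ranged from 37 to 51 against Oct4, 33 to 55 against Sox2 and 17 to 36 against Klf4, and for the single lines from 20 to 35 (Oct4 against Sox2), 33 to 43 (Oct4 against Klf4) and 36 to 51 (Sox2 against Klf4). Host counts ranged from 70 to 86, 66 to 83, 50 to 73 and 68 to 83, and ratio counts from 11 to 18, 8 to 23, 13 to 26 and 16 to 30, in Oct4, Sox2, Klf4 and OSK. Of 198 counts without 1 library, 11 fell by more than 1.5 times: OSK against Klf4 to 17, 18 and 19, Oct4 against Sox2 to 20 (in 2 cases), Sox2 ratios to 8, 12 and 14, Klf4 ratios to 13 and 14, and the OSK ratio to 16. The cause was not tested. With DESeq2, 25% of 24 members that differed between OSK and Klf4 were higher in OSK, against 36% of 33.

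For single members, hosts and ratios that passed against GFP, and for untested members' values, 2849 of 3058 values under the other settings kept their call or stayed within the spread, 173 lost their call and 36 moved by more than the spread. Leaving out 1 library kept 3709 of 4004 and lost 250 calls, and none of all these values changed sign. The replicate block gave 32, 44, 37 and 41 members in Oct4, Sox2, Klf4 and OSK against GFP. Same-numbered libraries did not deviate together, with correlations between -0.069 and 0.042 except for GFP with OSK (0.412), so apart from this exception the numbers do not pair the libraries. GFP replicate 1 and OSK replicate 1 were the libraries that stood apart in features detected. Their part in the value of 0.412 was not tested. Members with few reads limit the precision: 48 had a mean under 100.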

Other observations

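ADIRF-AS1 had 162.57 and 169.39 normalised counts in the Oct4 line, while its host ADIRF, a gene of fat cell differentiation, was listed at 0 in all 11 libraries. In GENCODE 91.9% of the exon bases of ADIRF lie within exons of ADIRF-AS1. Over protein-coding genes whose exon bases lay wholly in exons of the opposite strand (a share that rounds to 100%), 13 of 16 (81.2%) were listed at 0 in every library, against 426 of 11440 (3.72%) of those with under 1%. The host PCBP1, an RNA-binding protein gene with 52.2% of its exon bases in member exons, had only 161 to 297 normalised counts. For hosts in general the shared part was small, with a median of 3.45% of exon bases, under 10% for 114 of 146, and over 50% for 4. How the counting treated reads that lie in exons of both strands is not given in the sources used here.

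NOP14-AS1, tail to tail with the ribosome assembly gene NOP14, rose in Klf4 by 0.42 (SE 0.09; limma adjusted p = 0.00187), with 735.62 and 772.41 against 513.4, 622.16 and 556.03 in GFP. NOP14 fell by 0.64 in Oct4 (limma adjusted p = 4.08e-06) and 0.65 in Sox2 (limma adjusted p = 2.89e-06), where NOP14-AS1 had values of -0.11 (limma adjusted p = 0.377) and -0.07 (limma adjusted p = 0.565).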
